A study of Mus musculus with 4 samples.

Results

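The disease contrast under metformin was described in single cells of mouse gingiva, the gum tissue that surrounds the teeth. It set the library labelled as a disease sample treated with metformin (the disease+metformin library) against the library labelled metformin treatment (the metformin library). All barcodes with at least 200 detected genes and at most 20% of their UMIs (unique molecular identifiers, which mark single RNA molecules) in mitochondrially encoded genes were taken. This gave 1657 cells with disease and 2477 without, 4134 of the 7134 kept cells of the series. The other 3000 cells came from a disease library and a healthy library without metformin, which share no library with the treated pair and are set beside it as the untreated pair. Each group was 1 library, so no value has a replicate check and nothing was tested. Intervals give counting error alone. Both treated libraries carry metformin, so the contrast holds no untreated control of its own. The labels give no strain, age, sex, number of animals, way of inducing disease, or dose and duration of metformin, and whether a library pooled several mice is not stated.

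Gingival epithelium is a stratified layer of keratinocytes. Its basal cells divide and carry the keratins Krt5 and Krt14, and cells that leave the basal layer change their keratins and build a cornified envelope, a protein and lipid shell that is the barrier of the tissue. Minor salivary glands lie near the oral epithelium and release mucins, trefoil peptides and serous proteins. In periodontal disease, bacteria at the tooth surface bring neutrophils and other leukocytes into the gingiva, and collagen and bone around the tooth are lost. Metformin lowers blood glucose, and its known targets include complex I of the mitochondrial respiratory chain and AMPK, a sensor of cell energy.

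The kept cells held 12000069 UMIs with disease and 19493395 without, with a median of 1715 and 1829 UMIs per cell, and the libraries shared 1 barcode sequence. Cells were sorted by marker genes into a keratinocyte gate (at least 2% of UMIs in 10 keratins, few gland transcripts), a gland gate (at least 3 UMIs of at least 2 of 18 gland genes that make at least 0.2% of UMIs, under 1% of UMIs in the keratins) and gates for 8 further classes. Barcodes that met 2 definitions were left out of all gates, and no doublet caller was run, so doublets within a class remain. Expression was summed over cells and given as CPM, counts per 1000000 UMIs of that sum. A gene counted as measured with at least 20 UMIs over both libraries, and as higher or lower where its CPM differed at least 1.5-fold. The log2 ratios below are disease over no disease, under metformin unless the untreated pair is named.

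Glands, not surface epithelium, made up the largest gated class of the disease+metformin library. Gland cells were 742 of 1657 cells with disease (44.8%, 95% Clopper-Pearson interval 42.4 to 47.2) and 510 of 2477 without (20.6%, 19.0 to 22.2), a 2.17-fold higher share (log2 1.12, 0.96 to 1.29). Keratinocytes were 467 cells with disease (28.2%, 26.0 to 30.4) and 834 without (33.7%, 31.8 to 35.6), a log2 ratio of -0.26 (-0.42 to -0.09). Without metformin the order of the gland shares was the opposite, with 15.1% of cells in the disease and 27.4% in the healthy library. The gland gate also held 60.3% of all UMIs with disease and 31.0% without. The dissection took the maxillary gingival neck, per the labels' protocols, and how much gland it carried in each library is not stated.

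Connective tissue and blood classes were small in both libraries. Fibroblasts were 9 cells with disease and 50 without (log2 -1.89, -3.10 to -0.86), where the untreated pair gave 1.37. Red blood cells were 18 and 71, and vessel cells 21 and 48. Leukocytes numbered 26 with disease and 28 without, so their share was 1.57% and 1.13% with intervals that overlap. Cells that met no definition were 17.5% with disease and 28.2% without, and barcodes that met the keratin and gland minimums together were 30 and 110.

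**Figure D1:**
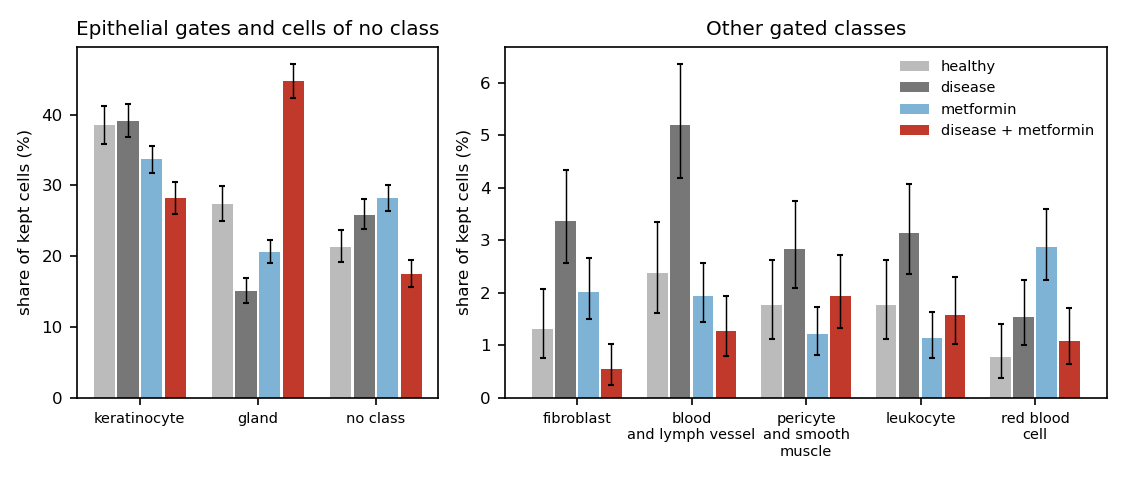
Share of kept cells (%) in the gated classes of the 4 libraries, with 95% Clopper-Pearson intervals, which cover counting error only. The gland share reaches 44.8% in the disease+metformin library against 20.6% in the metformin library, and the fibroblast share is 0.543% against 2.02%.

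The markers that set the gates are described here, so their sums are not a check of the gates. Within the gland gate the 18 gland genes summed to 19411 CPM with disease and 19496 without, and the 10 keratins to 311 and 776 CPM. Aqp5, the apical water channel of salivary acini, was at 1403 CPM with disease and 1156 without. Sox10, a regulator of gland and nerve cells and the only gland gene at 0 in the gate, had 5 UMIs with disease and none without. The keratinocyte gate held 31269 and 34945 CPM of its keratins, and 344 and 284 CPM of the gland genes. In that gate 61.9% of cells with disease and 50.6% without held no mitochondrial UMI, the median UMI count was 1609 and 2253, and the nuclear RNA Malat1 was at 3413 and 5633 CPM. The part of these gaps in the results below was not tested. Both gates also contain cells near their limits. Of the keratinocyte gate, 218 cells with disease and 348 without had under 3% of UMIs in the keratins, while 210 and 557 cells of no class had 1 to 2%.

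Over all cells, mucous and transport transcripts of the glands were higher with disease, serous ones were not higher as a group, and those of surface epithelium, connective tissue and granulocytes were lower. Of 14678 measured genes, 1691 (11.5%) were higher and 2268 (15.5%) lower, and the median log2 ratio was -0.01. Scaled to the UMIs outside the secreted gland genes, the median was 0.12 and 57.5% of the called genes were higher, against 42.7%. The 18 gland markers summed to 12022 CPM with disease and 6768 without, with 15 of 18 higher. The 10 keratins summed to 7370 and 14755 CPM. In such sums, fewer cells of a class and less RNA per cell of that class cannot be told apart.

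Mucous products were mostly higher. Of 22 measured mucins, trefoil peptides and mucous-cell genes, 18 were higher and 1 lower (median 1.00). Tff2, a trefoil peptide that stabilises mucus, stood at 38247 CPM in the healthy, 27289 in the disease, 23259 in the metformin and 62773 in the disease+metformin library. The disease+metformin library was the highest of the 4 and the metformin library the lowest (log2 1.43). Muc5b, the main gel-forming mucin of saliva, was at 42522 CPM with disease and 23390.0 without. Its CPM was also highest with disease and metformin together. These transcripts reached most barcodes: Tff2 UMIs were found in 1607 of 1657 and 2062 of 2477 cells, and in 441 of the 467 and 569 of the 834 gated keratinocytes. Gland RNA was thus also counted in barcodes outside the gland gate, with Muc5b at 713 CPM with disease and 911 without in gated keratinocytes, and its part in results outside the gland gate was not tested.

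Of 18 measured genes of gland water and ion transport, 8 were higher and 2 lower. Among them were Kcnma1, a calcium-activated potassium channel (274 CPM with disease and 84.6 without, log2 1.69), Aqp5 (861 CPM with disease and 396 without, 1.12) and Chrm3, the muscarinic receptor that starts salivation (335 CPM with disease and 156 without, 1.10). The salivary serous secreted proteins were divided, with 6 higher and 6 lower of 18 (median 0.27). Within the gland gate 14 members of the transport list were counted, with a median of 0.00, 0 higher and 3 lower. Of all genes in that gate 5.22% were higher and 11.2% lower. Kcnma1 and Aqp5 are gate genes and were not counted there. In the gate Kcnma1 was at 446 CPM with disease and 238 without (log2 0.91), and Aqp5 at 1403 and 1156 (0.28).

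Several genes differed far more than the gland share did. Iqcg (chr16:33012683-33056218), which encodes a part of the dynein regulatory complex of cilia and flagella, was at 2.58 CPM in the healthy, 0.629 in the disease, 0.462 in the metformin and 14.1 in the disease+metformin library. Only the disease+metformin library stood above 3 CPM, with 169 UMIs in 113 cells (log2 4.93, 3.97 to 6.08). Lbp (chr2:158306493-158332852), the secreted protein that binds bacterial lipopolysaccharide, was at 6.08 CPM in the healthy, 6.76 in the disease, 3.39 in the metformin and 34.3 in the disease+metformin library. Here too 1 library stood apart (log2 3.34, 2.96 to 3.74), and 367 of its 412 UMIs lay in gland cells. Smgc (chr15:91838265-91861438), a salivary protein of developing glands, was at 1978 CPM in the healthy, 599 in the disease, 635 in the metformin and 3559 in the disease+metformin library. Healthy gingiva was the second highest, so Smgc was higher with disease under metformin (log2 2.49) and lower with disease without it (-1.72). Smgc shares its locus with the mucin gene Muc19, which was higher to a lesser degree (log2 0.98), and the split of reads between them is uncertain. Tmsb15b1, an actin-binding thymosin, had 100 and 7 UMIs, and its near-identical copy Tmsb15b2 98 and 57, so the division between the copies is uncertain. The other highest genes by the fixed ranking were Fstl4 (log2 2.83), Tepp (2.64), Armcx5 (2.86) and the secreted phospholipase Pla2g10 (2.39).

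The lowest genes by the same ranking included several fibroblast transcripts. Inmt (chr6:55170626-55175043), an amine methyltransferase, was at 7.73 CPM in the healthy, 24.3 in the disease, 22.7 in the metformin and 0.667 in the disease+metformin library. All of its UMIs lay in gated fibroblasts, 8 with disease in 2 cells and 442 without in 26 cells. Col3a1 (chr1:45311538-45349706), a fibrillar collagen, was at 64.1 CPM in the healthy, 163 in the disease, 123 in the metformin and 14.9 in the disease+metformin library, lowest in the disease+metformin library (log2 -3.04, -3.27 to -2.82). Angptl1 (log2 -3.61), Itgbl1 (-4.31) and Hsd17b2 (-4.15), a steroid dehydrogenase, were also lower. Of 30 collagens and matrix genes, 24 were lower and 0 higher (median -1.37), with Col1a1 at 4.08 CPM with disease and 45.8 without. In the untreated pair 27 of the 30 were higher and 0 lower (median 1.09), against 15.3% and 6.25% of all genes in that pair. The 10 fibroblast markers summed to 400 CPM with disease and 1238 without, and 823 of the 893 Col1a1 UMIs of the metformin library came from its 50 fibroblasts. The part of cell number in this difference was not tested.

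Granulocyte and cytokine genes rested on few leukocytes. Of 13 neutrophil granule and calprotectin genes, 10 were lower and 2 higher (median -3.11). S100a9, a subunit of calprotectin, was at 497 CPM in the healthy, 451 in the disease, 186 in the metformin and 0.833 in the disease+metformin library. The disease+metformin library was the only one under 1 CPM, with 10 UMIs. In the metformin library 1 barcode held 73.0% of the S100a9 UMIs and 1 barcode held all 562 UMIs of Ngp, a neutrophil granule protein. The leukocyte markers summed to 339 CPM with disease and 751 without, with 2 of 16 higher and 6 lower, and none was at 0 in either library. These markers include S100a9 and S100a8, so the sums count the S100a9 UMIs described above again. S100a8 was at 2.25 CPM with disease and 158 without. The cytokines and chemokines were 7 higher and 12 lower of 26, against 11.5% and 15.5% of all genes. Il1b, a central cytokine of gum inflammation, was at 20.0 CPM in the healthy, 48.9 in the disease, 56.0 in the metformin and 18.2 in the disease+metformin library. Of its UMIs 216 of 218 with disease and 1090 of 1092 without lay in leukocytes, in 10 and 16 cells. Cxcl2, which attracts neutrophils, was at 41.4 CPM with disease and 84.1 without (log2 -1.02), against 2.32 in the untreated pair.

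An exception among defence genes was Lcn2, which encodes an iron-withholding antibacterial protein. It stood at 44.4 CPM in the healthy, 51.9 in the disease, 17.03 in the metformin and 92.8 in the disease+metformin library. Its CPM was highest with disease under metformin, and its source differed, with 565 of 1114 UMIs in gland cells and 345 in barcodes of several classes with disease, against 19 of 332 in gland cells and 196 in 1 leukocyte without. Lrg1, a secreted glycoprotein induced in inflammation, was also higher with disease (249.5 CPM with disease and 72.7 without, log2 1.78), and 2935 of its 2994 UMIs lay in gland cells.

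Interferon response genes were more often higher than lower. Of 29 measured members, 17 were higher and 2 lower (median 0.68), against 11.5% and 15.5% of all genes. Isg15, a ubiquitin-like protein induced by interferon, was at 4.60 CPM in the healthy, 9.19 in the disease, 9.95 in the metformin and 16.5 in the disease+metformin library. Bst2, a surface protein that holds enveloped virus on the cell, was at 37.3 CPM with disease and 23.03 without, and Irgm1, an interferon-induced GTPase, at 11.3 CPM with disease and 6.57 without. Higher values were found for Irf7, an amplifier of the type I response (5.75 CPM with disease and 1.54 without), Irf9, the DNA-binding part of the ISGF3 complex (19.1 CPM with disease and 8.16 without), and the nucleic acid sensor Zbp1 (12.1 CPM with disease and 3.39 without). The members that were lower were Rsad2 (12 and 134 UMIs) and Iigp1 (9 and 51). Without metformin the list's median was 0.50, with 12 of 25 higher and 1 lower, against 15.3% and 6.25% of all genes in that pair. Of the 17 MHC class I presentation genes 7 were higher and 0 lower, against 11.5% and 15.5% of all genes. Among them were the class I chains H2-D1 (445 CPM with disease and 202 without) and H2-K1 (375 CPM with disease and 206 without). In gland cells 2 of 15 were higher and 1 lower (median 0.17), against 5.22% and 11.2% of all genes. In keratinocytes 2 of 10 were higher and 1 lower (median 0.31), against 6.12% and 15%.

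The promoters of 3 of these genes are shown because most measured members were higher and the regulators of such genes bind a short repeat. The 250 bases before each gene's start were searched on both strands for TTTC followed after any 2 bases by a second TTTC, the core of the interferon-stimulated response element, in the RefSeq promoter table of GRCm38.p6. The letters occurred in 936 of 27025 genes (3.46%) and in 14 of the 25 list members with an entry (56%). Of the 13 members with an entry that were higher over all cells, 6 had them (46.2%), a lower share than in the list. In gland cells 1 of 5 higher members with an entry had them. Rsad2, which was lower over all cells, had a match as well. Capitals mark the matches, which may overlap and read GAAA, any 2 bases, GAAA where the motif lies on the other strand, and each sequence runs 5′ to 3′ towards the gene's start on the minus strand.
Isg15, chr4:156200819-156201068: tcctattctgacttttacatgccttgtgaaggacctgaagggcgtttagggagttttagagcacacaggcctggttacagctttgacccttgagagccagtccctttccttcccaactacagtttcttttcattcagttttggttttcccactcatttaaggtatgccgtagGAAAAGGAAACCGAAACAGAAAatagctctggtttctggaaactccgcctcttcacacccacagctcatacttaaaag
Bst2, chr8:71537473-71537722: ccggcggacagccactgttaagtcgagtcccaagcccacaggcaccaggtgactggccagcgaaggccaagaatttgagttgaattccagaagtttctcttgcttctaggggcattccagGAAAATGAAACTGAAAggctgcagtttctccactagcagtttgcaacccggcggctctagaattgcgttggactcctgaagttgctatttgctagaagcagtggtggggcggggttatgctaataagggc
Irgm1, chr11:48871421-48871670: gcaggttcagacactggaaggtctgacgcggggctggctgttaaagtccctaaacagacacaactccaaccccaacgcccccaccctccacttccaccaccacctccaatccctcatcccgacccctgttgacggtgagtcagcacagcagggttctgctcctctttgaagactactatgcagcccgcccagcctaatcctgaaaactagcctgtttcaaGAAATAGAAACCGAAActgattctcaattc
The Irgm1 match nearest the start began 24 bases before it, that of Isg15 66 bases and that of Bst2 124 bases before. A match describes the letters of the window and is not a measured site.

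Immediate-early genes, which respond within minutes to stimuli and to tissue digestion, were 14 higher and 2 lower of 21 (median 0.71). Of all genes 11.5% were higher and 15.5% lower. Atf3 was at 118 CPM in the healthy, 90.7 in the disease, 89.5 in the metformin and 235 in the disease+metformin library, and Jun at 225 CPM in the healthy, 212 in the disease, 206 in the metformin and 416 in the disease+metformin library. Both were highest in the disease+metformin library. The untreated pair gave a median of 0.07, and since the digestion ran 20–30 min per the labels' protocols, handling and condition cannot be told apart. Division genes went the other way, with 21 of 29 mitotic genes lower and 0 higher (median -0.83). Of the UMIs of Mki67, a marker of dividing cells, 60.1% with disease and 45.1% without lay in cells of no class, and 18.9% and 34.0% in keratinocytes. Replication-dependent histone genes were 15 lower and 0 higher of 19, and histone copies are alike enough that the division among them is uncertain. Genes of AMPK, mTORC1 and lipid synthesis, chosen for metformin, were 3 higher and 0 lower of 28, near the 11.5% of all genes that were higher, with Scd1, a fatty acid desaturase, the furthest (log2 1.12). The nuclear-encoded subunits of complex I had no member past 1.5-fold in either direction.

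**Figure D2:**
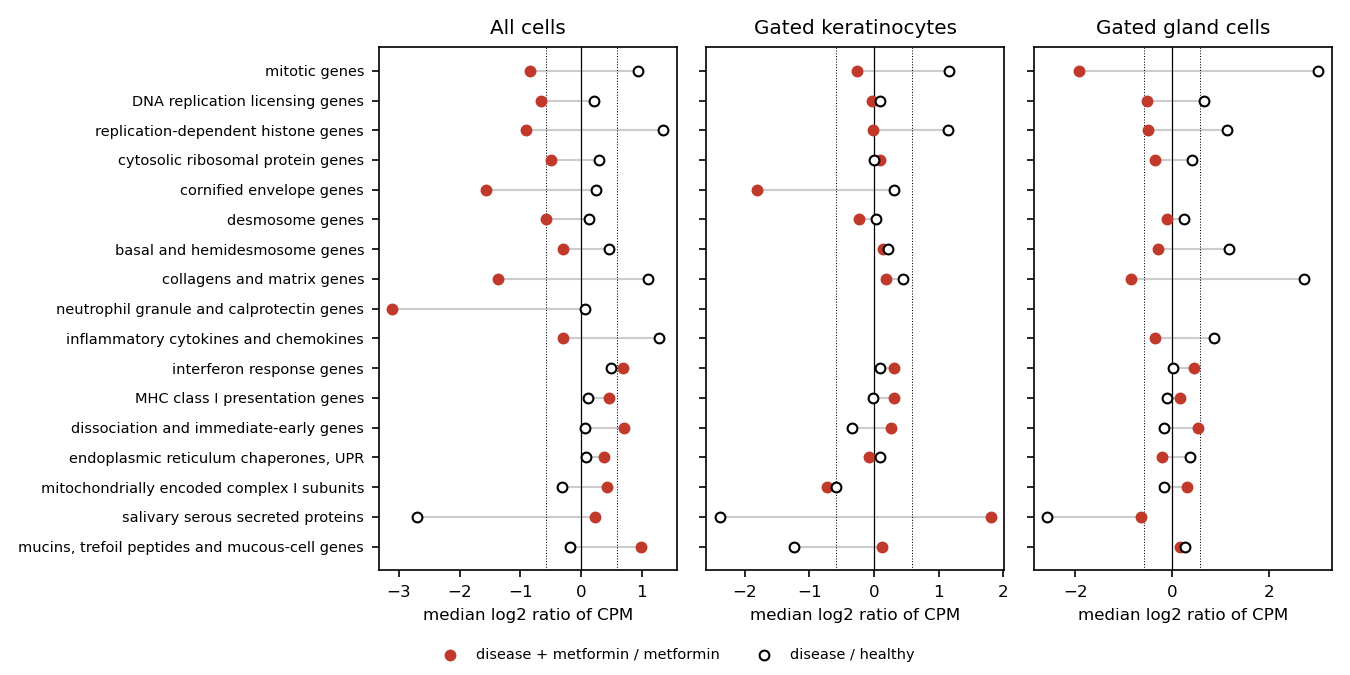
Median log2 ratio of CPM for 17 gene lists over all cells, gated keratinocytes and gated gland cells, with the treated pair in red and the untreated pair in white. Points are drawn for lists with at least 5 members measured in both pairs, and dotted lines mark a 1.5-fold difference. The red points of the cornified envelope genes lie at -1.57 over all cells and -1.82 in keratinocytes, where the white points lie at 0.24 and 0.31.

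Within gated keratinocytes, most cornified envelope genes were lower with disease in the summed counts, while most basal genes were within 1.5-fold. Of 10230 measured genes, 626 (6.12%) were higher and 1539 (15%) lower, with a median of -0.06. The gate held 1738811 UMIs with disease and 5447025 without. Its deepest barcode alone held 9.14% of the UMIs with disease and 4.80% without. Without the deepest barcode of each gate, an alternative chosen after the data were seen, 467 genes were higher and 2008 lower.

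The cornified envelope genes were mostly lower. Of 18 measured members 15 were lower and 0 higher (median -1.84), against 15% and 6.12% of all genes in the gate. With every cell weighted equally the median was -0.44, within 1.5-fold, with Sbsn at -0.18 and Krtdap at -0.25, and without the deepest barcode of the gate it was -1.35. Tgm3 (chr2:130012349-130050399), a transglutaminase that cross-links envelope proteins, was at 359 CPM in the healthy, 219 in the disease, 286 in the metformin and 81.1 in the disease+metformin library. The disease+metformin library was the lowest of the 4 (log2 -1.82, -2.08 to -1.57), and Tgm3 was also lower with disease in the untreated pair (-0.71). Lor, which encodes the main envelope protein loricrin, was at 19.8 CPM in the healthy, 34.0 in the disease, 57.1 in the metformin and 8.05 in the disease+metformin library, with 14 and 311 UMIs. One barcode held 64.3% of the Lor UMIs of the metformin library. Cnfn, which encodes cornifelin, was at 55.2 CPM in the healthy, 101 in the disease, 115 in the metformin and 13.2 in the disease+metformin library (log2 -3.12), and 1 barcode held 46.9% of its UMIs without disease. Krtdap, a secreted protein of differentiating keratinocytes, was found in 294 of 467 and 589 of 834 cells, at 3651 CPM with disease and 6798 without (log2 -0.90, -0.94 to -0.86). Sbsn, suprabasin, followed at 262 CPM with disease and 565 without (-1.11). Elovl4 (chr9:83778692-83806277), which makes the very long fatty acids of the barrier, had 11 and 133 UMIs (-1.95, -2.99 to -1.06), with 27.3% of those with disease in 1 barcode. Crct1 had no UMI with disease and 93 without, which gave 9.90-fold lower with a floor of 3 UMIs (log2 -3.31). This is not a bound, and the log2 ratio ranged from -3.31 to -1.17 over the alternative settings. The member that was furthest the other way was Sprr1a (log2 0.47).

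**Figure D3:**
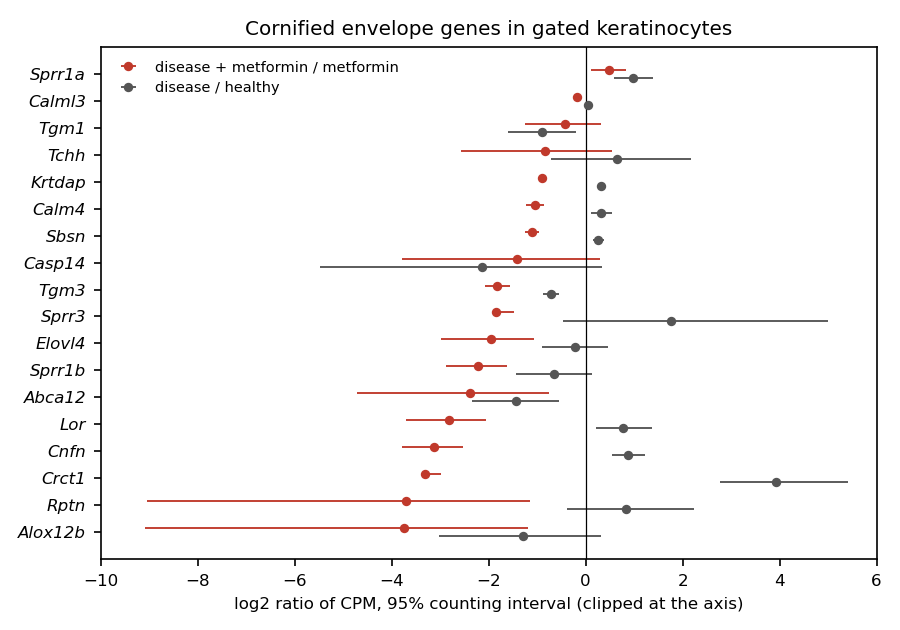
Log2 ratio of CPM for the 18 measured cornified envelope genes in gated keratinocytes, in the treated pair (red) and the untreated pair (grey), with 95% counting intervals. Genes without UMIs in 1 library, such as Crct1, are drawn at their bound. Most red points lie left of 0 while the grey points lie on both sides.

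Outside the envelope list the gaps were fewer. The protease inhibitors of the upper epithelium were 6 lower and 2 higher of 18, against 15% and 6.12% of all genes in the gate. Spink5, which restrains the proteases that shed surface cells, was at 27.3 CPM in the healthy, 74.1 in the disease, 117 in the metformin and 40.3 in the disease+metformin library, and Serpinb12 at 186 CPM in the healthy, 164 in the disease, 265 in the metformin and 89.1 in the disease+metformin library. Both were lower with disease under metformin (log2 -1.54 and -1.57), while Spink5 was higher with disease in the untreated pair (1.44). With keratin limits of 4% and 0.5% the ratio of Spink5 was -0.07. Of 14 desmosome genes 4 were lower and 0 higher, the lower ones being Dsc1, Evpl, Ppl and Dsg1a, which belong to or mark suprabasal layers. Fabp5, a fatty acid carrier, was at 5623 CPM with disease and 7728 without (log2 -0.46).

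The keratins chose the gate as a sum, so their makeup is a description. Krt4, the soft-mucosa keratin, was at 5129.8 CPM in the healthy, 3478 in the disease, 3034 in the metformin and 568 in the disease+metformin library in gated keratinocytes, and its partner Krt13 at 10449 CPM in the healthy, 9151 in the disease, 8814 in the metformin and 4449 in the disease+metformin library. Both were lowest with disease under metformin. Krt76, a keratin of keratinized oral mucosa, was at 791 CPM in the healthy, 408 in the disease, 666 in the metformin and 1186 in the disease+metformin library and Krt15, a basal keratin, at 690.4 CPM in the healthy, 455 in the disease, 748 in the metformin and 1271 in the disease+metformin library, both highest with disease under metformin. With keratin limits of 4% and 0.5% the ratio of Krt5 turned from -0.061 to 0.69. The basal pair Krt5 and Krt14 was at 4414 and 16534 CPM with disease, and at 4605 and 14322 without. Over all cells, where no gate was used, Krt4 (chr15:101918535-101924735) was 10.2-fold lower (92.3 CPM with disease and 942 without), with 45.8% of its UMIs with disease in 1 barcode.

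Basal and hemidesmosome genes were 2 higher and 1 lower of 18 (median 0.14). Itgb4, the integrin of the hemidesmosome, was at 105 CPM with disease and 68.3 without and Lamb3, a laminin chain of its ligand, at 35.1 CPM with disease and 21.1 without, with 26.2% and 44.3% of the UMIs with disease in 1 barcode. With every cell weighted equally the log2 ratio of Itgb4 turned to -0.17, and without the deepest barcode of the gate that of Lamb3 turned to -0.031. Wnt4 was at 142 CPM with disease and 214 without (log2 -0.59). Cxcl14, a chemokine of basal keratinocytes, was at 176 CPM in the healthy, 276 in the disease, 283 in the metformin and 376 in the disease+metformin library, within 1.5-fold between the treated libraries (log2 0.41, and -0.064 with every cell weighted equally). Among the 29 mitotic genes 5 were lower and 0 higher (median -0.27), a share near the 15% of all genes that were lower. In the untreated pair 27 were higher (median 1.15), beside 11.4% of all genes. Top2a, which untangles DNA in division, was at 97.5 CPM in the healthy, 202 in the disease, 149 in the metformin and 98.9 in the disease+metformin library, and Mki67 at 59.4 CPM in the healthy, 126 in the disease, 82.6 in the metformin and 65.6 in the disease+metformin library. For both, the healthy and the disease+metformin library were the lowest and the disease library the highest. With stricter keratin limits of 4% and 0.5% the log2 ratio of Top2a turned to 1.19, that of Mki67 from -0.33 to 3.10 and the list's median to 0.56, so no direction is given for this list.

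The genes ranked highest in keratinocytes were led by Sncg (chr14:34370274-34374789), a synuclein. It was at 17.1 CPM in the healthy, 0.365 in the disease, 8.81 in the metformin and 64.4 in the disease+metformin library and lay in 53 and 24 cells of the treated pair (log2 2.87, 2.37 to 3.39), with 37.5% of its UMIs without disease in 1 barcode. The healthy library was above the metformin library, and the disease library close to 0. Glo1 (chr17:30584936-30626871), which detoxifies methylglyoxal, a by-product of glycolysis, was at 277 CPM in the healthy, 200.1 in the disease, 140.3 in the metformin and 364 in the disease+metformin library, highest with disease under metformin and lowest with metformin alone (log2 1.38, 1.22 to 1.53). The creatine kinase Ckb (log2 1.21), Hint2 (1.10), the leukotriene B4 receptor Ltb4r1 (0.96), the noncoding Snhg1 (0.81) and S100a10 (0.60), the partner of annexin A2, were also at that end of the ranking. The ratio of Ltb4r1 turned to -0.19 with every cell weighted equally.

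At the other end, Ndufa4l2 (chr10:127514967-127517154), a mitochondrial protein induced by low oxygen, was at 171 CPM in the healthy, 144 in the disease, 192 in the metformin and 59.8 in the disease+metformin library (log2 -1.68, -1.99 to -1.39). It was lowest with disease under metformin and similar in the other 3 libraries. Ankrd37, also induced by low oxygen, had 3 and 55 UMIs. Glycolysis and lactate genes were 5 lower and 0 higher of 20 (median -0.25), against 15% and 6.12% of all genes in the gate. Hk2, a hexokinase, was at 7.48 CPM with disease and 17.6 without. Ldha, which makes lactate, was within 1.5-fold (460.1 CPM with disease and 616 without). Gas7 had 1 and 70 UMIs, Mal2 1 and 50, and the phospholipase Pla2g4f 3 and 60, with log2 ratios of -4.48 (-9.81 to -1.96), -4.00 (-9.33 to -1.45) and -2.67 (-4.99 to -1.06). Dlg2, a scaffold protein, was at 10.4 CPM with disease and 31.6 without.

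Genes tied to metformin were set apart in this gate. Of 26 genes of AMPK, mTORC1 and lipid synthesis 6 were lower and 0 higher, against 15% and 6.12% of all genes. The list's median of -0.24 turned to 0.094 with every cell weighted equally. Acaca, the enzyme that commits acetyl-CoA to fatty acid synthesis, was at 49.3 CPM in the healthy, 44.2 in the disease, 36.0 in the metformin and 15.5 in the disease+metformin library, and Sqle, of cholesterol synthesis, at 17.7 CPM in the healthy, 17.2 in the disease, 17.6 in the metformin and 6.33 in the disease+metformin library. The disease+metformin library was the lowest for both (log2 -1.21 and -1.48), on 27 and 11 UMIs. Of the 7 mitochondrially encoded complex I subunits 5 were lower and 0 higher (median -0.73), and the untreated pair gave -0.59. The nuclear-encoded subunits had a median of 0.13. The mitochondrial values stand beside the 61.9% and 50.6% of cells with no mitochondrial UMI, and mt-Nd1 came from 35 and 133 cells. Salivary serous transcripts in this gate were 6 higher and 2 lower of 10, but 1 barcode held 62.0% of the Dcpp1 UMIs with disease, and without metformin Dcpp1 was at 10.2 CPM with disease and 1198 without. The median of this list turned from 1.81 to -0.91 when the gates were set on cells thinned to 500 UMIs.

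In gated gland cells the mucins Muc5b and Muc19 were within 1.5-fold, while some other mucous genes, division genes, several serous proteins and a set of single genes differed. Of 11696 measured genes 610 (5.22%) were higher and 1315 (11.2%) lower, with a median of -0.08. Depth was similar between the treated libraries, with medians of 1851 and 1789 UMIs per gland cell, whereas the untreated libraries had 12310.5 with disease and 6593 without. The gate's keratins were at 311 CPM with disease and 776 without, its leukocyte markers at 12.7 and 29.1, with 8 and 3 of 16 at 0, its fibroblast markers at 9.82 and 47.5, with 6 and 4 of 10 at 0, and its haemoglobin and red cell genes at 43.4 and 265 CPM. The marker sums of these classes were thus lower with disease in this gate. Those of nerve and glia were close, at 99.3 CPM with disease and 104 without, and those of skeletal muscle at 2.35 and 2.32. Lyz2 alone held 47 of the 92 leukocyte marker UMIs with disease and 117 of the 176 without. The part of RNA of other classes in the results was not tested.

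Muc5b was at 66830.0 CPM in the healthy, 63898 in the disease, 66076 in the metformin and 69339 in the disease+metformin library, 1.05-fold apart in the treated pair, and Muc19 at 3361 CPM in the healthy, 4213 in the disease, 2808 in the metformin and 3142 in the disease+metformin library. The 4 libraries lay close together for Muc5b. Tff2 was higher with disease (81750.0 CPM in the healthy, 80879 in the disease, 66522 in the metformin and 102510.0 in the disease+metformin library, log2 0.62), while the mucous-cell protein Spink4 (881 CPM with disease and 1412 without, -0.68) and Tff1 (47 and 106 UMIs, -1.43) were lower. Of 16 measured members of the mucous list outside the gate genes, 4 were higher and 2 lower (median 0.19, and 0.66 with every cell weighted equally), against 5.22% and 11.2% of all genes. With that weighting Spink4 was at -0.51 and Tff1 at -0.32, both within 1.5-fold, and Tff2 was at 0.55 with gates on thinned cells.

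Serous proteins were 8 lower and 1 higher of 16 (median -0.57), against 11.2% and 5.22% of all genes in the gate. Sbpl, a spermine-binding-like secreted protein, was at 7255 CPM in the healthy, 209 in the disease, 2124 in the metformin and 81.7 in the disease+metformin library. It was low in both disease libraries and high in both libraries without disease (log2 -4.70 and -5.12), with 40.2% of the UMIs of the metformin library in 1 barcode. Bpifa2, an antimicrobial parotid protein, followed the same order at 335 CPM in the healthy, 25.7 in the disease, 119 in the metformin and 16.9 in the disease+metformin library. The treated log2 ratio of Bpifa2 was -2.81, and it ranged from -3.28 to -1.08 over the alternative settings. The gate left out most of this RNA: it held 122 of 891 Bpifa2 UMIs with disease and 717 of 3017 without, and 44.2% and 34.4% of the Dcpp1 UMIs, while cells of no class held 61.1% and 49.0% of Bpifa2 and 45.5% and 47.7% of Dcpp1. Lipf, gastric lipase, did not follow that order, with 74.0 CPM in the healthy, 447 in the disease, 478 in the metformin and 15.8 in the disease+metformin library and 44.6% of the UMIs of the metformin library in 1 barcode. The Dcpp proteins were closer in the treated pair, with Dcpp1 at 9229 and 10034 CPM (log2 -0.12, which turned to 0.34 with keratin limits of 4% and 0.5%) and -3.62 in the untreated pair, and reads of Dcpp1, Dcpp2 and Dcpp3 are hard to assign among these similar genes. The list was chosen with results of these libraries known. Klk1, a kallikrein of salivary ducts, was the member that was higher (17.6 CPM with disease and 5.13 without, log2 1.77).

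Amhr2 (chr15:102445367-102454633), the receptor of anti-Müllerian hormone, had the largest gap of the ranking. It was at 23.6 CPM in the healthy, 21.7 in the disease, 25.3 in the metformin and 0.138 in the disease+metformin library. The other 3 libraries lay within 4 CPM of each other, and the disease+metformin library held 1 UMI among 742 gland cells, where the metformin library held 153 UMIs in 83 of 510 (log2 -7.52, -12.83 to -5.02). In gated keratinocytes Amhr2 was at 2.88 CPM with disease (5 UMIs) and 4.59 without (25 UMIs). That log2 ratio was -0.67, with an interval of -2.42 to 0.74. Pik3r6 (chr11:68503019-68552698), a regulatory subunit of phosphoinositide 3-kinase gamma, was at 8.13 CPM in the healthy, 1.65 in the disease, 26.3 in the metformin and 0.691 in the disease+metformin library. It was lower with disease in both pairs (log2 -5.25 and -2.30). Rims2, a protein of regulated exocytosis, was at 13.2 CPM in the healthy, 19.8 in the disease, 15.9 in the metformin and 4.29 in the disease+metformin library and the zinc finger gene Zfp979 at 3.18 CPM with disease and 12.1 without. Pamr1 (log2 -2.61) and Ccdc146 (-2.23) were also lower. The RNase gene Rnaset2b had 12 and 55 UMIs in gland cells, but it has a near-identical copy, Rnaset2a, which over all cells was at 62.4 and 52.1 CPM, so its ratio is uncertain. The same holds for the dynein light chain Dynlt1f (log2 -2.02) beside its copies Dynlt1a, Dynlt1b and Dynlt1c.

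The genes ranked highest in gland cells included Lbp, Iqcg, Tmsb15b1, Smgc, Fstl4 and Tepp, which were also among the highest over all cells, whose sums hold the same gland cells. Lbp was at 5.08 CPM in the healthy, 6.59 in the disease, 1.82 in the metformin and 50.7 in the disease+metformin library, and it was found in 134 of 742 gland cells with disease and 5 of 510 without (log2 4.80, 3.94 to 5.82). Iqcg was at 3.86 CPM in the healthy, 0.471 in the disease, 0.497 in the metformin and 20.5 in the disease+metformin library, with 148 UMIs in 94 cells and 3 UMIs in 3 cells, a log2 ratio of 5.36 (3.79 to 7.66). Ldhb (chr6:142490249-142507957), the lactate dehydrogenase chain that favours pyruvate, was at 133 CPM in the healthy, 16.9 in the disease, 8.77 in the metformin and 49.4 in the disease+metformin library. Healthy gland cells were the highest for Ldhb, so the treated and untreated ratios were 2.49 and -2.98. Smgc was at 4175 CPM in the healthy, 1773 in the disease, 1868 in the metformin and 5819 in the disease+metformin library, the one abundant transcript among the highest genes. Bex4 was at 10.2 CPM with disease and 1.99 without, Fstl4 at 28.2 CPM with disease and 7.28 without and Tepp at 11.6 CPM with disease and 2.81 without, and Fstl4 and Tepp were higher with disease in the untreated pair as well (1.87 and 1.11).

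**Figure D4:**
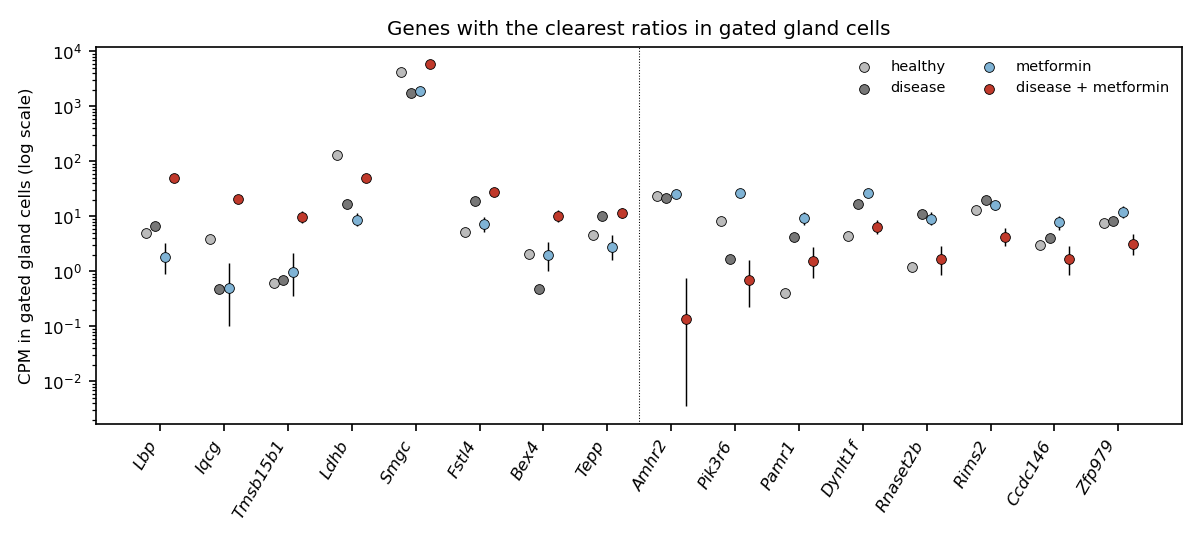
CPM in gated gland cells on a log scale for the 16 genes of the fixed ranking, 8 higher (left of the dotted line) and 8 lower with disease under metformin, in the 4 libraries. Bars on the 2 metformin libraries are 95% Poisson intervals. Amhr2 lies between 21.7 and 25.3 CPM in 3 libraries and at 0.138 CPM in the disease+metformin library.

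Defence genes of gland cells differed in both directions. Lcn2 was at 3.25 CPM in the healthy, 45.2 in the disease, 3.15 in the metformin and 78.1 in the disease+metformin library, high in both disease libraries (log2 4.63 and 3.80), with 41.1% of the UMIs with disease under metformin in 1 barcode and UMIs in 90 cells. Slpi, a protease inhibitor of mucosal fluids, was at 29.5 CPM in the healthy, 154 in the disease, 43.7 in the metformin and 78.1 in the disease+metformin library, and Lrg1 at 99.0 CPM in the healthy, 219 in the disease, 199 in the metformin and 406 in the disease+metformin library. Both were higher with disease in each pair, Slpi highest in the disease and Lrg1 in the disease+metformin library. H2-Ab1, the beta chain of an MHC class II molecule, was at 2.44 CPM in the healthy, 6.82 in the disease, 1.99 in the metformin and 23.1 in the disease+metformin library, found in 96 cells with disease and 4 without. The class II genes H2-Aa, Cd74 and H2-Eb1 did not accompany it, with 3, 7 and 4 UMIs with disease and 11, 28 and 35 without. Of 14 measured cytokines and chemokines 2 were higher and 5 lower, against 5.22% and 11.2% of all genes in the gate. Cxcl1 was at 19.1 CPM in the healthy, 2.59 in the disease, 7.61 in the metformin and 15.2 in the disease+metformin library, lowest in the disease library. Il33, Cst6, Defb6 and Aqp4 showed large ratios in this gate, but 1 barcode held between 91.2% and all of their UMIs in the metformin library.

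Interferon response genes in the gland gate were 10 higher and 2 lower of 22 (median 0.50), against 5.22% and 11.2% of all genes. Ifi27l2a was at 5.28 CPM in the healthy, 9.18 in the disease, 8.61 in the metformin and 33.6 in the disease+metformin library, Irf9 at 9.76 CPM in the healthy, 7.30 in the disease, 9.60 in the metformin and 21.7 in the disease+metformin library and Isg15, whose promoter is shown above, at 3.86 CPM in the healthy, 3.77 in the disease, 7.12 in the metformin and 14.7 in the disease+metformin library. The disease+metformin library was the highest for all 3. Xaf1 (69 and 13 UMIs), Oasl2 (30 and 5) and Irf7 (38 and 8) had few UMIs. With every cell weighted equally the log2 ratio of Ifi27l2a was 0.35 against 1.96, and that of Irf7 0.44 against 1.99, both within 1.5-fold. The untreated pair gave a median of 0.01 over the 16 members measured in both pairs, where the treated pair gave 0.44. In keratinocytes only 9 members were measured, 3 of them higher.

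Immediate-early genes were 8 higher and 2 lower of 20 in gland cells, with Dusp1, a phosphatase of MAP kinases, at 48.4 CPM in the healthy, 35.3 in the disease, 43.9 in the metformin and 103 in the disease+metformin library and Atf3 at 185 CPM in the healthy, 130.4 in the disease, 165 in the metformin and 354 in the disease+metformin library. Of all genes in the gate 5.22% were higher and 11.2% lower. Genes of protein folding in the endoplasmic reticulum were mostly within 1.5-fold, 2 lower and 0 higher of 24 (median -0.22). Hspa5, the main chaperone of that compartment, was at 589.8 CPM in the healthy, 1274 in the disease, 1086 in the metformin and 811 in the disease+metformin library. The healthy library was the lowest and the disease library the highest. Clock genes of the Rev-erb family, Nr1d1 (0.813 CPM in the healthy, 1.88 in the disease, 1.66 in the metformin and 9.96 in the disease+metformin library) and Nr1d2 (3.86 CPM in the healthy, 6.59 in the disease, 7.78 in the metformin and 17.4 in the disease+metformin library), were higher with disease. The clock list as a whole was 4 higher and 2 lower of 14 (median -0.08), with the clock gene Arntl at -0.37. The time of day of sampling is not given. The mitochondrially encoded subunits had medians of 0.31 for 7 of complex I and 0.41 for 6 of complexes III to V, none past 1.5-fold, with mt-Co2 at 5864 CPM with disease and 4188 without.

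Nearly all mitotic genes were lower in the gland gate. Of 29 measured members 28 were lower and 0 higher (median -2.07), against 11.2% of all genes. With every cell weighted equally the median was -0.79, Tpx2 moved from -3.31 to -0.84, and Top2a from -2.07 to -0.53, within 1.5-fold. Top2a was at 1.02 CPM in the healthy, 15.8 in the disease, 32.4 in the metformin and 7.74 in the disease+metformin library, in 26 and 50 cells of the treated pair. The metformin library was the highest and the healthy library the lowest. Tpx2, a spindle assembly factor, was at 0.203 CPM in the healthy, 3.53 in the disease, 13.7 in the metformin and 1.38 in the disease+metformin library, and Cenpf, a kinetochore protein, at 1.22 CPM in the healthy, 12.5 in the disease, 44.5 in the metformin and 8.71 in the disease+metformin library. The same order of libraries held for both. Over the 17 members measured in both pairs, the medians were -1.93 with metformin and 3.02 without. These levels were far below those of the keratinocyte gate, whose median mitotic gene was at 90.0 CPM without disease against 20.7 in the gland gate, and Krt14 in the gland gate was at 380.1 CPM without disease and 171 with it. The part of keratinocyte RNA in the mitotic counts of the gland gate was not tested.

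**Figure D5:**
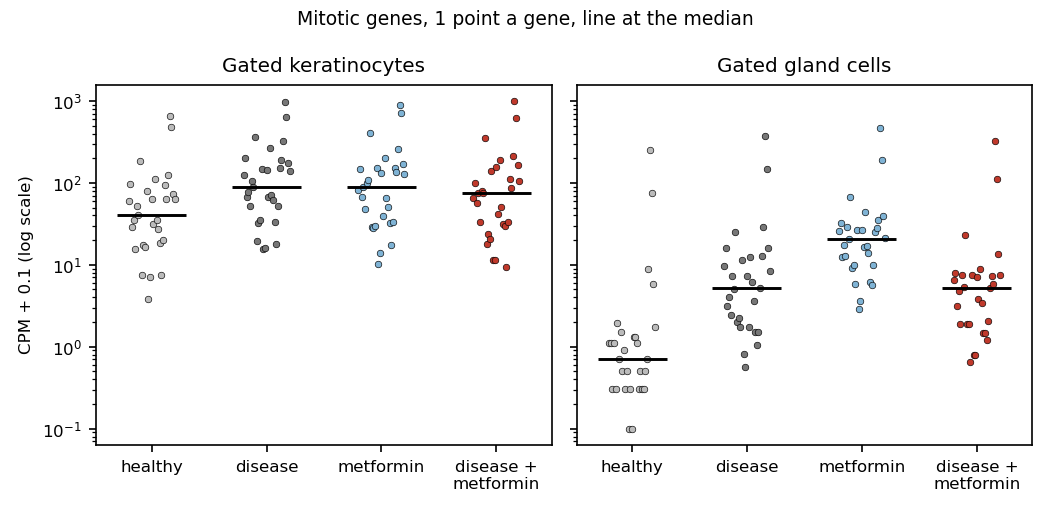
CPM plus 0.1 of 29 mitotic genes on a log scale in gated keratinocytes and gated gland cells of the 4 libraries, with 1 point a gene and a line at the median. In gland cells the median gene lies at 20.7 CPM with metformin alone and 5.12 with disease and metformin, before the offset of 0.1.

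The disease contrasts with and without metformin were set side by side. Of 14102 genes measured in both pairs over all cells, 199 were higher with disease in both, where 1691 and 2212 were higher in each, and 149 lower in both, where 2268 and 905 were lower in each, while 878 were lower with metformin and higher without, and 305 the reverse. Single genes past 1.5-fold were 11.5% higher and 15.5% lower in the treated pair, and 15.3% higher and 6.25% lower in the untreated pair. In keratinocytes the counts were 79 higher in both, 168 lower in both, 224 lower with metformin and higher without, and 80 the reverse, beside 11.4% higher and 7.06% lower in the untreated pair. In gland cells they were 108, 173, 307 and 80, beside 13.3% and 7.09%. Class makeup and depth differed between the pairs, the gland share by a log2 ratio of 1.12 with metformin and -0.86 without, and the difference between the contrasts was not tested. In gland cells Ldhb and Smgc were higher with disease under metformin and lower without it, and Lipf was at -4.92 with metformin and 2.59 without. Sbpl, Bpifa2, Lcn2 and Slpi were on the same side of 0 in both pairs.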

How the data were processed

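Droplet single-cell RNA was measured in 4 mouse gingiva libraries, 1 per group. The authors deposited UMI counts per gene and barcode for each library, made with Cell Ranger 7.0.1 and bcl2fastq on mm10, per the submitters' processing notes; the annotation and the cell calling settings are not given in the sources used here. In all, the count tables hold 32285 gene identifiers, and identifiers that share a symbol were summed to 32245 symbols. From these counts, barcodes under 200 genes or over 20% mitochondrial UMIs were removed, and the others were gated by marker genes, and summed to CPM with Python 3.11.15, numpy 2.4.6, pandas 2.3.3 and scipy 1.17.1, and plotted with matplotlib 3.10.9. The 2 treated libraries held 13025479 UMIs with disease and 22333858 without as deposited.

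Intervals at 95% were exact Poisson for CPM, exact conditional binomial for ratios and Clopper-Pearson for shares. They cover counting error only. The simulated data on which the ratio intervals were tested were independent Poisson counts, the same model the intervals assume. That test therefore did not cover UMIs gathered in single barcodes. A gene with no UMI in 1 library was given a floor of 3 UMIs. Gate genes were left out of counts, medians and rankings within gates. In each of all cells, keratinocytes and gland cells, the 8 highest and 8 lowest genes were named by the interval bound nearest 0, among genes with at least 50 UMIs and no barcode holding over 20% of the gene's UMIs in the higher library. Within a gate the CPM of the higher library also had to reach that over all its cells. The ranking did not use sex-linked genes, predicted genes without a name, antigen receptor genes (immunoglobulin and T cell), haemoglobins, or genes of the ribosome and the mitochondrial genome. Of the genes so ranked, 1 is not reported here. Up to 4 members of each of 40 lists were added by the same bound. Other genes were named for their role after their values were seen. The members and lists were chosen with earlier results of these data known. No doublet caller was run. Gene positions are from GENCODE vM21 on GRCm38, and promoters from RefSeq on GRCm38.p6. Alternatives changed the UMI minimum, scaling, cell weights, cell filters and gate limits.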

Additional observations from a re-analysis of the deposited data

Results flagged for a closer look

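The median log2 ratio of 8 lists lay past 1.5-fold in opposite directions in the treated and the untreated pair, and the difference between the pairs was not tested. Over all cells the collagens and matrix genes were at -1.37 with metformin and 1.09 without, over 30 genes. The mitotic genes were at -0.83 and 0.93 over 29 genes, and the replication-dependent histone genes at -0.91 and 1.35 over 19. The Ly6/uPAR family, small surface and secreted proteins of epithelium, was at -0.63 and 0.65 over 15 genes. The retinoid and fatty acid binding genes were at -0.61 and 0.65 over 17.

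Within gated gland cells the mitotic genes were at -1.93 with metformin and 3.02 without, over the 17 genes measured in both pairs. Over the 29 mitotic genes measured in the treated pair, the median gene was at only 0.610 CPM in healthy gland cells. With every cell weighted equally the treated median of those genes was -0.79. The collagens and matrix genes were at -0.86 and 2.71 over 7. Within gated keratinocytes the salivary serous proteins were at 1.81 and -2.39 over 8 genes.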

How the results depend on the processing

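No paired analysis was possible because each group is 1 library. Among named genes past 1.5-fold, all 418 values for 42 genes over all cells and all 588 for 42 genes in gland cells kept their direction in the alternatives run, and 417 and 579 stayed past 1.5-fold. In keratinocytes 512 of 517 values for 37 genes kept their direction and 478 stayed past 1.5-fold, 25 of 36 with every cell weighted equally. Of the list medians past 1.5-fold, 118 of 130 values over all cells, 61 of 62 in gland cells and 47 of 54 in keratinocytes stayed past it. The turns among these genes were Itgb4 at -0.17 and Ltb4r1 at -0.19 with every cell weighted equally, Top2a at 1.19 with keratin limits of 4% and 0.5%, Dcpp1 at -0.91 with gates on cells thinned to 500 UMIs, and Lamb3 at -0.031 without the deepest barcode of each gate, an alternative chosen after seeing the data. Printed genes within 1.5-fold that turned were, in keratinocytes, Mki67 at 3.10, Krt5 at 0.69 and Muc5b at 1.31 with those keratin limits, and Muc5b at 0.14 and Cxcl14 at -0.064 with every cell weighted equally, and, in gland cells, Dcpp1 at 0.34 with the keratin limits and 0.19 with gates on thinned cells, and Muc5b at -0.014 with the latter. The median of the serous proteins in keratinocytes turned to -0.45 among cells with mitochondrial and Malat1 UMIs and to -0.91 with gates on thinned cells. The cause was not tested. Counts moved by over 1.5 times mainly with the UMI minimum, which changes how many genes are counted. With a minimum of 1 UMI, 3331 genes were higher and 3522 lower over all cells, 1854 higher in keratinocytes, and 1532 higher and 2922 lower in gland cells, and genes lower with metformin and higher without numbered 1377 over all cells, 456 in keratinocytes and 836 in gland cells. With a minimum of 100 UMIs, 1172 were lower over all cells, 136 higher and 436 lower in keratinocytes, and 237 higher and 372 lower in gland cells, and those lower with metformin and higher without numbered 433, 35 and 62. With every cell weighted equally, 1435 were higher and 3003 lower in keratinocytes, 1976 higher and 2373 lower in gland cells, and those lower with metformin and higher without numbered 672 and 540. Without the top barcode of each gene, 325 were higher in keratinocytes and 351 lower with metformin and higher without. The share of called genes in keratinocytes that were higher was 28.9%, against 46.1% with a minimum of 1 UMI, 12.7% without the top barcode of each gene, 18.9% without the deepest barcode, 40.0% among cells with mitochondrial and Malat1 UMIs and 42.4% with the stricter keratin limits. In gland cells it was 31.7%, against 45.4% with every cell weighted equally. The log2 ratio of the gland share was 1.64 with the stricter keratin limits. That of the keratinocyte share was -0.46 with those limits and -0.96 among cells with mitochondrial and Malat1 UMIs. Depth limits genes with few UMIs in the keratinocyte gate, which held 1738811 UMIs with disease.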
